A study of Mus musculus with 11 samples.

Results

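R-spondins and Wnt ligands are secreted signals that set the strength of Wnt signalling in the intestinal epithelium, and their RNA was followed here through the stromal, muscle, endothelial and immune cells of the mouse small intestine. The 8 genes are Rspo1, Rspo2, Rspo3, Wnt2, Wnt2b, Wnt4, Wnt5a and Wnt5b. They were picked by symbol as a family, with earlier results of these data known and no threshold on a value, and all 8 were found among the 24943 gene names of the bulk count table, the 27999 genes of the sorted single-cell library and the 31053 genes of each whole-mesenchyme library.

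The study profiled mesenchyme left after the muscle was stripped and the epithelium removed with EDTA, and no group carried a treatment. Bulk RNA came from 4 sorted populations with 2 libraries each. Telocytes were the brightly GFP-positive cells (GFPHi) and PDGFRAlo cells the dimly positive cells (GFPLo) of the PDGFRAH2BEGFP transgenic line, in which a nuclear green fluorescent protein reports Pdgfra expression. CD31 cells were the CD31+LYVE1- and LYVE1 cells the CD31+LYVE1+ endothelial fractions of C57BL/6 mice. Single-cell libraries came from GFP-positive cells of the PDGFRA reporter sorted at 2 GFPlo to 1 GFPhi (1 library), and from whole mesenchyme (2 libraries), for which the labels name no strain. Because the PDGFRA populations came from the reporter line and the endothelial populations from C57BL/6, strain and cell type cannot be told apart in comparisons between them. The labels give no animal age and do not say whether replicate libraries came from separate animals, so every p-value here rests on library-to-library spread alone, and that spread may be technical. In bulk RNA, fewer cells of a type and less RNA per cell cannot be told apart.

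Wnt ligands bind Frizzled receptors, and those that act through Lrp co-receptors stabilise beta-catenin, the pathway that maintains intestinal stem cells at the crypt base. R-spondins do not start this pathway themselves. They bind Lgr receptors and the membrane ligases Rnf43 and Znrf3, which otherwise remove Frizzled from the cell surface, and so raise the response to Wnt. Wnt5a and Wnt5b are best known for signalling through Ror and Ryk receptors without beta-catenin.

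The sorted populations carried the markers of their labels, with some admixture. The 9 telocyte markers summed to 6374 and 7455 CPM (read counts scaled to a common library size) in telocytes and to 596 to 707 CPM in PDGFRAlo cells. All 8 blood endothelial markers were at 1 CPM or more in both libraries of every group. In replicates 1 and 2 they summed to 3030 and 1100 CPM in PDGFRAlo cells, against 73.7 and 50.3 CPM in telocytes. LYVE1 libraries held 3978 and 7591 CPM of 7 lymphatic markers, of which Ccl21a had no read in any bulk library. They also held 169975 and 65449 CPM of 5 plasma cell markers and 7048 and 9058 CPM of 6 macrophage markers. CD31 libraries held 28597 and 21057 CPM of blood endothelial, 90.1 and 188 CPM of lymphatic and 2616 and 1860 CPM of macrophage markers. Library totals ranged from 8549348 to 55382442 counts.

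In the bulk libraries, the 8 genes split by population. Telocytes held the highest levels of Wnt4, Wnt5a and Wnt5b, PDGFRAlo cells the highest levels of Rspo1, Rspo2 and Wnt2b, and the LYVE1 endothelial fraction the highest levels of Wnt2 and Rspo3. CD31 blood endothelium held the highest level of none of them.

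**Figure D1:**
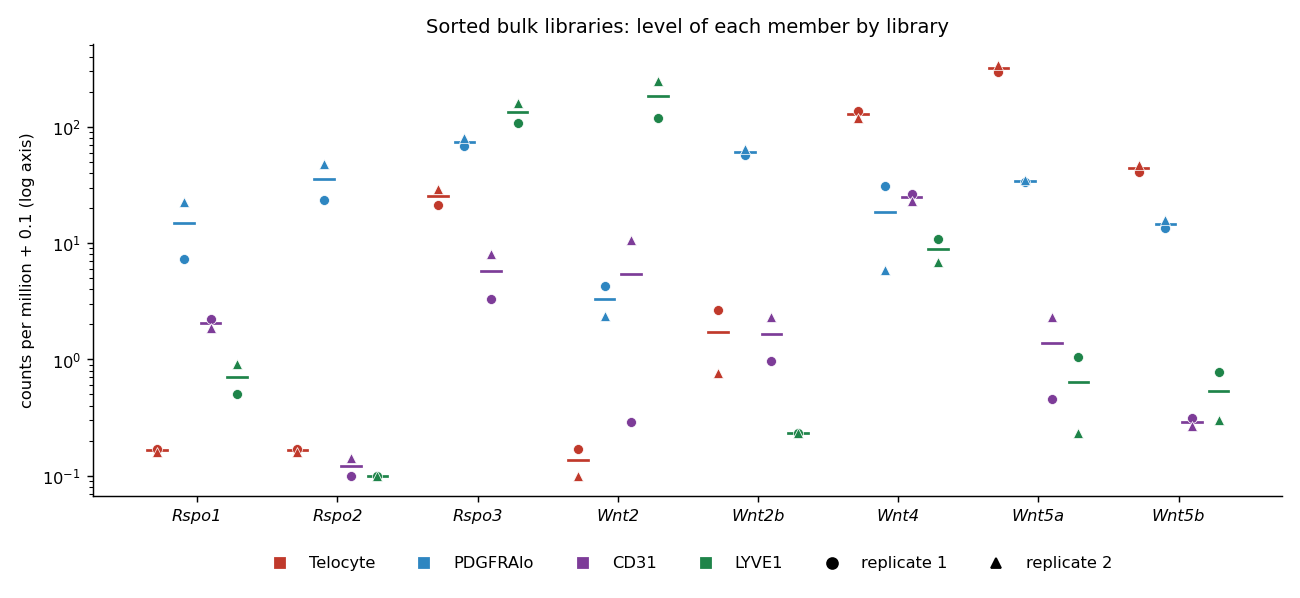
Level of each gene in the 8 bulk libraries, in CPM plus 0.1 on a log axis; circles and triangles are replicates 1 and 2, and short lines are means of 2 libraries. Wnt5a reaches 295 and 342 CPM in telocytes and Wnt2 118 and 248 CPM in LYVE1 cells, while Rspo2 is above 1 CPM only in PDGFRAlo cells.

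Counts were compared by edgeR's quasi-likelihood test over 14893 genes with Benjamini-Hochberg adjustment, and a gene was called at an adjusted p under 0.05; every adjusted p of a bulk comparison below comes from this fit. Between telocytes and PDGFRAlo cells, 7 of the 8 genes were called, 3 higher and 4 lower in telocytes. The same rule called 14.9% of all genes tested, 2.77% as higher and 12.1% as lower. The median log2 fold change of the 8 genes was -3.40, against -0.03 over all genes. Leaving out any of the 4 libraries compared left 4 of the 8 genes called: Rspo1, Rspo2 and Wnt2b in every case, with either Wnt4 or Wnt5a.

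Against endothelium, the background of called genes was higher. Telocytes differed from CD31 cells in 6 of the 8 genes (background 52.1%) and from LYVE1 cells in 7 (background 51.0%). PDGFRAlo cells differed from CD31 cells in 6 genes, all higher in PDGFRAlo cells (background 42.5%), and from LYVE1 cells in 6, of which 5 were higher (background 44.3%). The 2 endothelial fractions differed in 3 genes, Rspo3, Wnt2 and Wnt2b (background 23.0%). Without LYVE1 replicate 1 or without LYVE1 replicate 2, that count was 1. The 6 comparisons share libraries and are not independent of each other. The background was not counted with a library left out, so a lower count there may not concern these genes alone. This holds for the comparison of telocytes and PDGFRAlo cells as well.

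The single-cell libraries allowed the 8 genes to be followed in more cell types than the bulk sorts. After filtering, 3845 sorted cells and 6128 and 5927 whole-mesenchyme cells were kept, grouped by clustering that left out the 8 genes and the other Wnt pathway genes, and named from marker lists. In the whole mesenchyme, telocyte-like cells numbered 123 and 119, fibroblast-like cells 1155 and 1072, smooth muscle-like cells 349 and 290, pericyte-like cells 30 and 39, blood endothelial-like cells 158 and 159, and lymphatic endothelial-like cells 86 and 81. The labels of the whole-mesenchyme libraries repeat the protocol of the GFP sort, yet most of their kept cells fell in immune classes. The 2 whole-mesenchyme libraries shared 9 cell barcodes, and sums of unique molecular identifiers (UMIs) over their classes differed little beyond counting error (biological coefficient of variation 0.0634, against 0.381 in bulk), so p-values between classes measure a narrow spread.

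Levels in single cells are UMIs scaled by the class total in the same way (CPM). Sums of UMIs per class and library were tested by edgeR's quasi-likelihood test with the library as a block, over 12104 genes with Benjamini-Hochberg adjustment. Rspo1 was too sparse to pass the filter on low counts, so 7 genes were tested. Rspo2 passed it only through fibroblast-like cells, Wnt2 only through lymphatic endothelial-like cells and Wnt5b only through telocyte-like cells. Calls of these genes between that class and another restate the level there and are no separate support. Against fibroblast-like cells, telocyte-like cells differed in 6 of the 7 (background 27.1%), blood endothelial-like cells in 6 (background 50.7%), lymphatic endothelial-like cells in 6 (background 40.5%), smooth muscle-like cells in 5 (background 43.6%) and pericyte-like cells in 2 (background 18.6%). Blood and lymphatic endothelial-like cells differed in 2, Rspo3 and Wnt2 (background 25.6%). The sorted library is 1 sample, so its values carry exact 95% intervals for counting error and no test.

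**Figure D2:**
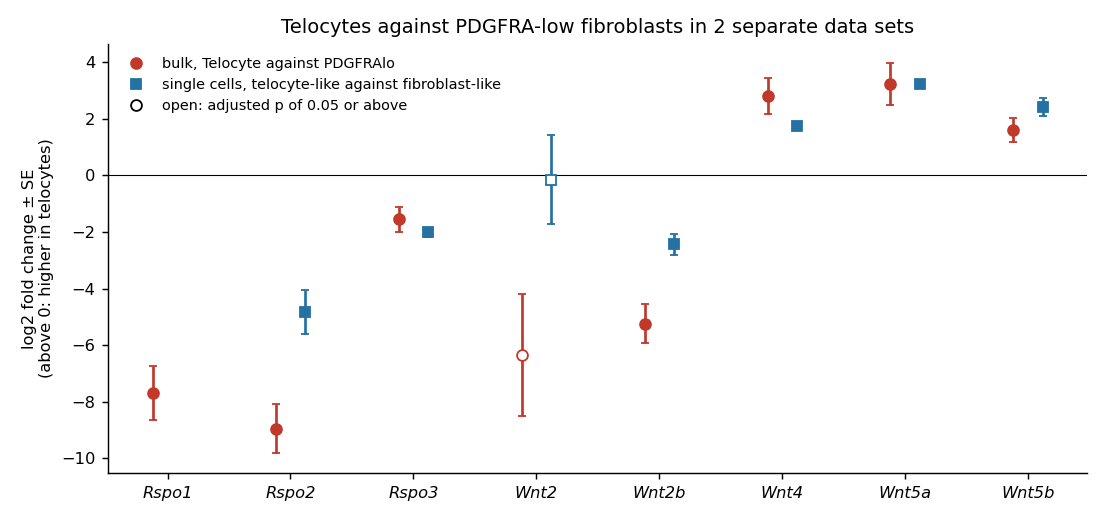
Log2 fold change of each gene, with its SE, between Telocyte and PDGFRAlo bulk libraries (circles) and between telocyte-like and fibroblast-like whole-mesenchyme cells (squares); open symbols did not pass an adjusted p of 0.05, and Rspo1 was not tested in single cells. Wnt4, Wnt5a and Wnt5b lie above 0 and Rspo2, Rspo3 and Wnt2b below 0 in both data sets.

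Rspo1, on chromosome 4 (chr4:124986430-125009099, plus strand, GRCm38), encodes a furin-like-repeat R-spondin. It measured 7.13 and 22.6 CPM in PDGFRAlo cells, 2.13 and 1.76 CPM in CD31 cells, 0.405 and 0.807 CPM in LYVE1 cells, and 0.0713 and 0.0605 CPM in telocytes, which is 1 read in each telocyte library. PDGFRAlo libraries were higher than all the others, but replicate 2 was over 3 times replicate 1. Counted over both libraries, the level in PDGFRAlo cells was 248 times that in telocytes (counting interval 68.3 to 2052; log2 fold change -7.69 ± 0.95 SE; edgeR adjusted p = 0.000972). The next step down, from PDGFRAlo to CD31 cells, had an adjusted p of 0.00806, but of 0.112 without PDGFRAlo replicate 2. CD31 and LYVE1 cells did not differ beyond their spread (adjusted p = 0.135).

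In single cells, Rspo1 was almost wholly fibroblast-like. Fibroblast-like cells held 100 of the 102 Rspo1 UMIs of whole-mesenchyme library 1 and 82 of the 86 of library 2, at 11.3 and 10.1 CPM. Blood endothelial-like cells had none in 317 cells, which allows up to 0.946% of cells with a UMI. That limit is not one on cells expressing the gene, since at this depth a UMI was found in 7.36% of fibroblast-like cells. Telocyte-like cells had 2 UMIs in 242 cells. The sorted library gave 19.0 CPM in fibroblast-like cells (16.7 to 21.6), with 0 UMIs in 1169 telocyte-like cells, which allows up to 0.537 CPM. Droplets without a cell in that library held 10.3 CPM of Rspo1 as free RNA.

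Rspo2 (chr15:43020794-43170826, minus strand) encodes an R-spondin of the same domain structure, and it was above 1 CPM in PDGFRAlo cells alone. It measured 23.5 and 47.6 CPM in PDGFRAlo cells, 0.0713 and 0.0605 CPM in telocytes, 0 and 0.0419 CPM in CD31 cells, and 0 in both LYVE1 libraries. The 2 PDGFRAlo libraries stood apart from the other 6, and replicate 2 was again the higher. The level in PDGFRAlo cells was 576 times that in telocytes (counting interval 159 to 4761; log2 fold change -8.95 ± 0.88; edgeR adjusted p = 0.000543) and at least 280-fold that in LYVE1 cells, with 3 counts over the group as the limit of a zero. In bulk, too, Rspo2 passed the filter on low counts only through PDGFRAlo cells, so calls against them restate its level there. Telocytes did not pass the test against CD31 cells (adjusted p = 0.323) or LYVE1 cells (adjusted p = 0.224), each resting on 2 counts or fewer.

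Fibroblast-like cells of the whole mesenchyme held 14.2 and 15.3 CPM of Rspo2, and telocyte-like cells 1 UMI in 242 cells. The fibroblast-like level was 27.7 times the telocyte-like level (counting interval 4.92 to 1097). Rspo2 passed the filter on low counts only through fibroblast-like cells, so calls against them restate its level there. edgeR called Rspo2 lower in all 5 other classes tested against fibroblast-like cells, with an adjusted p of 7.25e-06 for telocyte-like and 0.0361 for pericyte-like cells (0.0526 with doublets kept). DESeq2 on the same sums called none of these, with adjusted p of 0.546 for telocyte-like, 0.321 for blood endothelial-like, 0.418 for lymphatic endothelial-like, 0.679 for smooth muscle-like and 0.690 for pericyte-like cells. In the sorted library, fibroblast-like cells held 225 UMIs (17.8 CPM; 15.5 to 20.2) and telocyte-like cells 1.

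Rspo3 (chr10:29452416-29535867, minus strand) encodes the R-spondin with the widest expression here. It measured 107 and 159 CPM in LYVE1 cells, 67.6 and 80.3 CPM in PDGFRAlo cells, 20.96 and 29.3 CPM in telocytes, and 3.24 and 8.002 CPM in CD31 cells. The 4 populations did not overlap. LYVE1 and PDGFRAlo cells did not differ in the test (log2 fold change of PDGFRAlo against LYVE1 -0.84 ± 0.43; adjusted p = 0.141), telocytes lay below PDGFRAlo cells (-1.56 ± 0.44; edgeR adjusted p = 0.0442), and telocytes lay above CD31 cells (2.17 ± 0.46; adjusted p = 0.00397). The difference between telocytes and PDGFRAlo cells lost its call without any 1 of the libraries of the telocyte, PDGFRAlo or LYVE1 groups, with adjusted p of 0.277 and 0.142 without telocyte replicates 1 and 2, 0.105 and 0.168 without PDGFRAlo replicates 1 and 2, and 0.0630 and 0.0641 without LYVE1 replicates 1 and 2.

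The endothelial difference in Rspo3 was the larger one. CD31 cells were lower than LYVE1 cells by a log2 fold change of -4.57 ± 0.50 (edgeR adjusted p = 0.00127). A same-strand gene model, Gm20276, and an opposite-strand one, Gm48159, overlap the locus, and the strand setting of the counts is not given in the sources used here.

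Single cells placed Rspo3 in the same order. Lymphatic endothelial-like cells held 205 and 270.4 CPM, fibroblast-like cells 107 and 115, pericyte-like cells 71.8 and 89.6, smooth muscle-like cells 39.7 and 54.6, telocyte-like cells 36.7 and 25.2, and blood endothelial-like cells 1.17 and 3.44. Against fibroblast-like cells, lymphatic endothelial-like cells were higher (log2 fold change 0.87 ± 0.12; edgeR adjusted p = 2.54e-07), and telocyte-like cells lower (-2.01 ± 0.17; adjusted p = 2.48e-12). Pericyte-like cells were not called (-0.64 ± 0.28; adjusted p = 0.123), with 26 UMIs in 69 cells. Because fibroblast-like cells were many, they still held 79.5% and 76.3% of all Rspo3 UMIs, against 8.04% and 10.7% in lymphatic endothelial-like cells.

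The share of cells with an Rspo3 UMI was 57.0% and 74.1% of lymphatic endothelial-like and 43.2% and 42.8% of fibroblast-like cells, against 0.946% of blood endothelial-like cells at a similar depth to the lymphatic ones (medians of 4791.5 and 4765 UMIs against 4688 and 5192). With each cell thinned to 2000 UMIs, the shares were 29.6% and 45.7% in lymphatic endothelial-like and 18.0% and 16.7% in fibroblast-like cells. In smooth muscle-like cells, Rspo3 sat in few cells with many UMIs each, 199 UMIs in 58 of 639 cells.

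Wnt2 (chr6:17988940-18030585, minus strand), a ligand that acts through beta-catenin, marked the lymphatic fraction. It measured 118 and 248 CPM in LYVE1 cells, 0.189 and 10.4 CPM in CD31 cells, 4.16 and 2.26 CPM in PDGFRAlo cells, and 0.0713 and 0 CPM in telocytes. LYVE1 cells stood above all other libraries, while CD31 replicate 2 held most CD31 reads. CD31 cells were lower than LYVE1 cells by a log2 fold change of -5.13 ± 1.31 (edgeR adjusted p = 0.0223), with an adjusted p of 0.0512 without LYVE1 replicate 1 and 0.107 without LYVE1 replicate 2.

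The order of the lower 3 populations depended on single libraries. CD31 and PDGFRAlo cells did not differ (log2 fold change of PDGFRAlo against CD31 -0.71 ± 1.16; edgeR adjusted p = 0.650), and without CD31 replicate 2 the value was 4.02 (adjusted p = 0.00729). Summed lymphatic markers were 90.1 and 188 CPM in CD31 replicates 1 and 2 and 450.3 and 179 CPM in PDGFRAlo replicates 1 and 2. Within both groups the library with more Wnt2 had more lymphatic marker RNA. Between groups the order differed. Telocytes had 172 and 146 CPM of these markers with almost no Wnt2, and PDGFRAlo replicate 1 had less Wnt2 than CD31 replicate 2. The part of lymphatic marker RNA in the Wnt2 level was not tested. LYVE1 replicate 2, with more Wnt2, also had the higher lymphatic sum. Telocytes held 1 Wnt2 read in all, and PDGFRAlo cells 93.0 times their level (counting interval 16.4 to 3706; edgeR adjusted p = 0.0880). This difference was called by DESeq2 (adjusted p = 0.0188), with the 4 libraries alone (0.0197), with no filter on low counts (2.29e-05) and without CD31 replicate 1 or 2 (0.00428 and 0.00420).

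Single cells gave the same source. Lymphatic endothelial-like cells held 186 and 202 CPM of Wnt2, in 53 of 86 and 51 of 81 cells, and 93.5% and 94.2% of all Wnt2 UMIs of their library came from these cells, which were 1.40% and 1.37% of the cells. Blood endothelial-like cells had 0 Wnt2 UMIs in 317 cells, so the lymphatic level was at least 112-fold higher. Fibroblast-like cells held 0.450 and 0.618 CPM, 9 UMIs in 2227 cells, and lymphatic endothelial-like cells were higher by a log2 fold change of 8.16 ± 0.32 (edgeR adjusted p = 2.76e-20). Wnt2 passed the filter on low counts only through lymphatic endothelial-like cells, so this call restates its level there. Of the 109 lymphatic endothelial-like cells with an Rspo3 UMI, 70 also had a Wnt2 UMI (64.2%), against 58.6% of those without one.

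**Figure D3:**
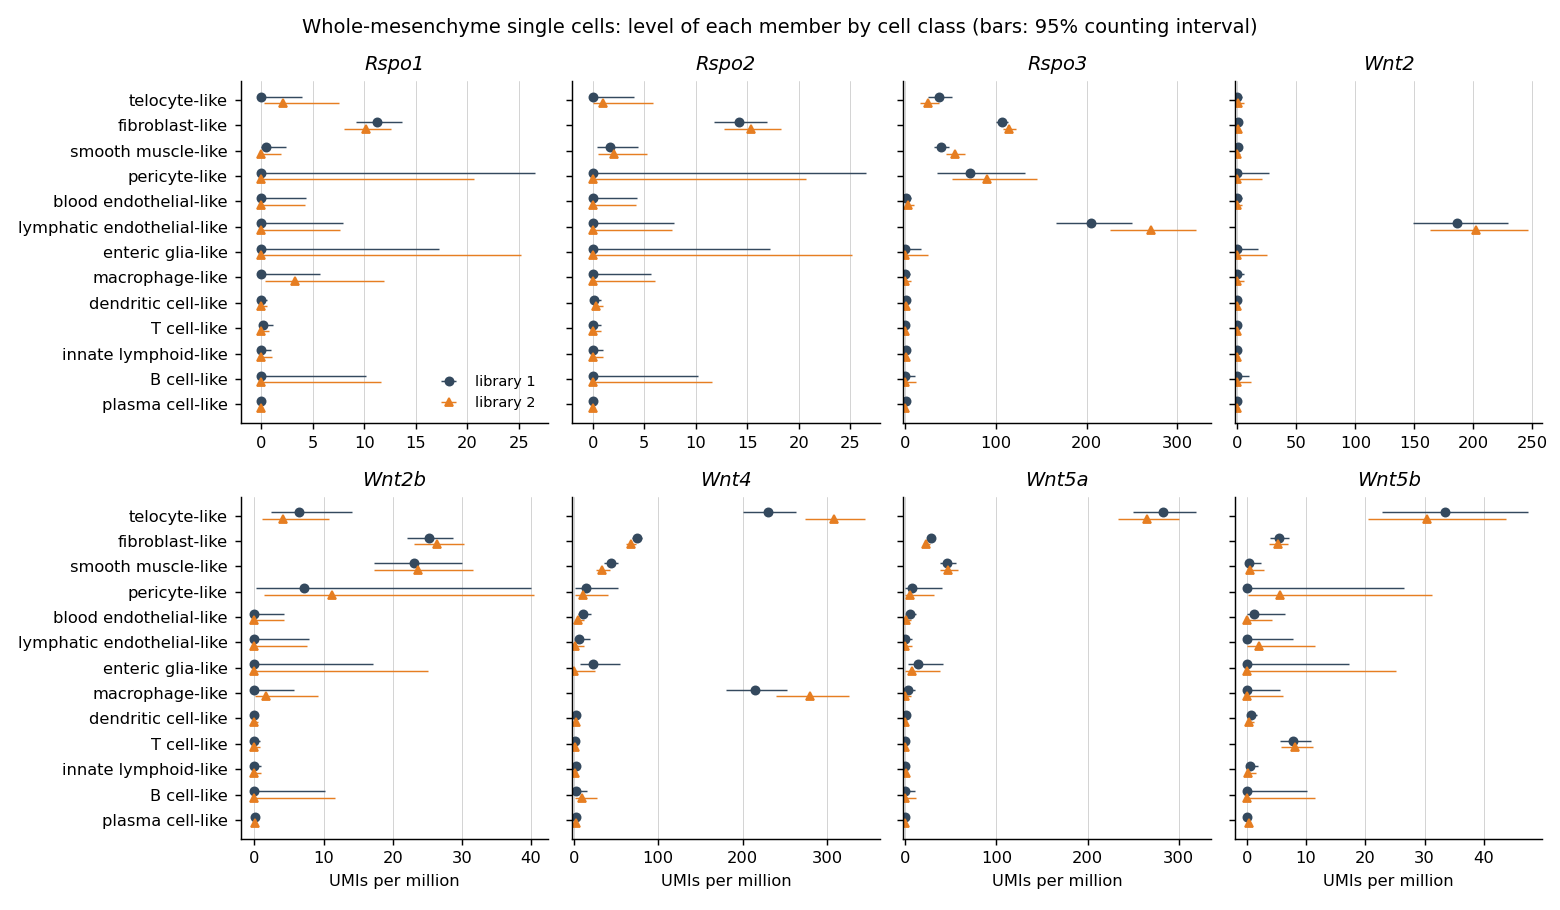
Level of each gene in CPM by cell class in whole-mesenchyme libraries 1 (circles) and 2 (triangles), with exact 95% counting intervals. Wnt2 is at 186 and 202 CPM in lymphatic endothelial-like cells and near 0 elsewhere, and Wnt4 is high in telocyte-like and macrophage-like cells.

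Wnt2b (chr3:104945272-104961921, minus strand), the related ligand that acts through beta-catenin, followed the PDGFRAlo cells. It measured 57.1 and 63.8 CPM in PDGFRAlo cells, 2.57 and 0.666 CPM in telocytes, 0.875 and 2.22 CPM in CD31 cells, and 0.135 and 0.134 CPM in LYVE1 cells. PDGFRAlo libraries stood far above the rest and close to each other. Telocytes were lower than PDGFRAlo cells by a log2 fold change of -5.24 ± 0.69 (edgeR adjusted p = 0.00123), and telocytes and CD31 cells did not differ in the test (0.07 ± 0.63; adjusted p = 0.937). CD31 cells were higher than LYVE1 cells, which held 3 reads (3.43 ± 0.93; adjusted p = 0.0282), but not without CD31 replicate 2 (adjusted p = 0.0994) or without LYVE1 replicates 1 or 2 (0.108 and 0.184).

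In whole mesenchyme, Wnt2b was found in smooth muscle-like as well as fibroblast-like cells. Fibroblast-like cells held 25.2 and 26.5 CPM and smooth muscle-like cells 23.1 and 23.7, a log2 difference of -0.28 ± 0.19 for muscle against fibroblasts (edgeR adjusted p = 0.248). The muscle level came from cluster 8, which has the fibroblast gene Adamdec1 among its leading genes, at 29.4 and 30.4 CPM, while the 157 cells of cluster 24 held 1 Wnt2b UMI. In bulk, 7 smooth muscle markers summed to 2220.0 and 1577 CPM in telocyte replicates 1 and 2 and to 767 and 419.5 CPM in PDGFRAlo replicates 1 and 2. The part of these markers in the Wnt2b level was not tested. Telocyte-like cells held 6.48 and 4.20 CPM (-2.44 ± 0.37; adjusted p = 2.63e-06). Blood and lymphatic endothelial-like cells held no Wnt2b UMI, which puts fibroblast-like cells at least 14.9-fold and at least 8.16-fold higher. In the sorted library, fibroblast-like cells held 17.0 CPM (14.8 to 19.4) and telocyte-like cells 4 UMIs (0.716 CPM; 0.195 to 1.83).

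Wnt4 (chr4:137277489-137299726, plus strand) encodes a ligand known to signal with or without beta-catenin according to context. It measured 136 and 119.6 CPM in telocytes, 26.4 and 23.0 CPM in CD31 cells, 30.8 and 5.82 CPM in PDGFRAlo cells, and 10.7 and 6.79 CPM in LYVE1 cells. Telocytes stood above all other libraries, while the PDGFRAlo libraries spanned the range of both endothelial groups. Telocytes were higher than PDGFRAlo cells by a log2 fold change of 2.81 ± 0.65 (edgeR adjusted p = 0.0179). The adjusted p was 0.0520 without telocyte replicate 1 and 0.0696 with the 4 libraries of both groups alone, and the log2 fold change was 4.48 without PDGFRAlo replicate 1. Telocytes also exceeded CD31 cells (2.37 ± 0.64; adjusted p = 0.0125), with adjusted p of 0.0570 and 0.0677 without CD31 replicates 1 and 2. CD31, PDGFRAlo and LYVE1 cells did not pass the test against each other (adjusted p of 0.590, 0.193 and 0.116). PDGFRAlo differed from CD31 cells without PDGFRAlo replicate 1 (log2 fold change -2.01; adjusted p = 0.0121) and from LYVE1 cells without PDGFRAlo replicate 2 (1.84; adjusted p = 0.0106), and CD31 from LYVE1 cells without either PDGFRAlo library (adjusted p of 0.0182 and 0.0161).

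In single cells, Wnt4 RNA lay in several classes. Telocyte-like cells held 230.0 and 307 CPM, macrophage-like cells 214 and 280.2, fibroblast-like cells 74.6 and 68.0, and smooth muscle-like cells 43.6 and 33.5. Smooth muscle-like cells held 8.29% and 5.57% of all Wnt4 UMIs. Blood endothelial-like cells held 13 Wnt4 UMIs in 317 cells (7.52 CPM), against 22.4 and 16.5 CPM in droplets without a cell. They were lower than fibroblast-like cells (log2 fold change -3.28 ± 0.33; edgeR adjusted p = 3.40e-11). In bulk, by contrast, CD31 and PDGFRAlo cells did not pass the test against each other for Wnt4. Telocyte-like cells exceeded fibroblast-like cells by a log2 fold change of 1.74 ± 0.12 (edgeR adjusted p = 6.50e-16). Within the fibroblast-like class, however, cluster 11, led by Adamdec1, Mmp10 and Igfbp3, held 333 and 337 CPM, while clusters 3 and 6 held 12.5 to 21.9. Cluster 11 held 1043 of the 1213 Wnt4 UMIs of the fibroblast-like class in 404 of its 2227 cells. The sorted library repeated this pattern in its cluster 6, led by Mmp10 and Igfbp3, with 101 CPM (82.9 to 122) against 2.35 to 7.01 in the other fibroblast-like clusters. Its telocyte-like cells held 96.3 CPM (88.3 to 105).

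A Wnt4 UMI was found in 57 of 163 and 52 of 143 macrophage-like cells (35.0% and 36.4%), whose defining genes were C1qa, C1qb, C1qc and Csf1r. The share was 0.480% and 0.566% in T cell-like cells of about the same depth (medians of 3355 and 3452 UMIs in macrophage-like against 3412 and 3343.5 in T cell-like cells), and droplets without a cell held 22.4 and 16.5 CPM of Wnt4. Of the other 7 genes, the 306 macrophage-like cells held 2 Rspo1, 2 Wnt5a and 1 Wnt2b UMIs, and none of Rspo2, Rspo3, Wnt2 or Wnt5b. In bulk, the macrophage marker sums were 2616 and 1860 CPM in CD31 and 7048 and 9058 CPM in LYVE1 libraries. They did not follow the order of Wnt4 between those groups, and their part in the Wnt4 level was not tested.

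Wnt5a (chr14:28504750-28527448, plus strand), the main ligand known for signalling without beta-catenin, was the highest of the 8 genes in telocytes. It measured 295 and 342 CPM in telocytes, 33.4 and 34.7 CPM in PDGFRAlo cells, 0.355 and 2.22 CPM in CD31 cells, and 0.945 and 0.134 CPM in LYVE1 cells. Telocyte and PDGFRAlo replicates were close to each other and did not overlap with any other group. Telocytes were 9.36 times PDGFRAlo cells (log2 fold change 3.23 ± 0.73; edgeR adjusted p = 0.0161), but the adjusted p was 0.0520 without telocyte replicate 2, and 0.0925 and 0.0859 without PDGFRAlo replicates 1 and 2. PDGFRAlo exceeded CD31 cells by 4.78 ± 0.81 (adjusted p = 0.00188), and the 2 endothelial groups did not differ in the test (adjusted p = 0.310). An opposite-strand gene model, Gm2670, overlaps Wnt5a.

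Whole-mesenchyme cells gave almost the same fold for Wnt5a. Telocyte-like cells held 283 and 266 CPM and fibroblast-like cells 28.3 and 23.1, a 9.45-fold difference (log2 fold change 3.24 ± 0.12; edgeR adjusted p = 1.82e-23). Smooth muscle-like cells lay between them at 46.1 and 46.9 CPM and exceeded fibroblast-like cells by 0.71 ± 0.15 (adjusted p = 0.000124). No Wnt5a UMI was seen in 167 lymphatic endothelial-like cells, at least 8.18-fold below fibroblast-like cells. The telocyte-like cells, 2.01% of the kept cells in both libraries, held 41.3% and 46.9% of all Wnt5a UMIs. The sorted library gave 160.5 CPM in telocyte-like cells (150.2 to 171) and 14.1 in fibroblast-like cells (12.1 to 16.4), with 38.2 CPM in its droplets without a cell.

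Wnt5b (chr6:119432531-119544347, minus strand), the close relative of Wnt5a, was also highest in telocytes and next in PDGFRAlo cells. It measured 40.6 and 47.2 CPM in telocytes, 13.4 and 15.6 CPM in PDGFRAlo cells, 0.213 and 0.168 CPM in CD31 cells, and 0.675 and 0.202 CPM in LYVE1 cells. Telocytes and PDGFRAlo cells did not overlap with each other or with endothelium. Telocytes were 3.03 times PDGFRAlo cells (log2 fold change 1.60 ± 0.41; edgeR adjusted p = 0.0295), a call that was lost without telocyte replicate 1 or 2 (adjusted p of 0.121 and 0.216) and without PDGFRAlo replicate 1 or 2 (0.129 and 0.106). PDGFRAlo exceeded LYVE1 cells by 5.21 ± 0.55 (adjusted p = 0.000205). The opposite-strand gene Fbxl14 overlaps the locus.

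Single cells added an immune source of Wnt5b. Telocyte-like cells held 33.5 and 30.4 CPM, T cell-like cells 7.87 and 8.19, and fibroblast-like cells 5.40 and 5.19. Telocyte-like cells exceeded fibroblast-like cells by a log2 fold change of 2.41 ± 0.33 (edgeR adjusted p = 1.58e-07). Wnt5b passed the filter on low counts only through telocyte-like cells, so this call restates its level there. Because T cell-like cells were 20.4% and 20.9% of the kept cells, they held 29.9% and 29.5% of all Wnt5b UMIs. Most of these lay in clusters 9 (15.9 and 19.9 CPM) and 18 (31.8 and 35.5 CPM), both with Ccl5, Gzma and Cd8a among their leading genes. Innate lymphoid-like cells, of similar depth, held 3 Wnt5b UMIs in 2061 cells.

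**Figure D4:**
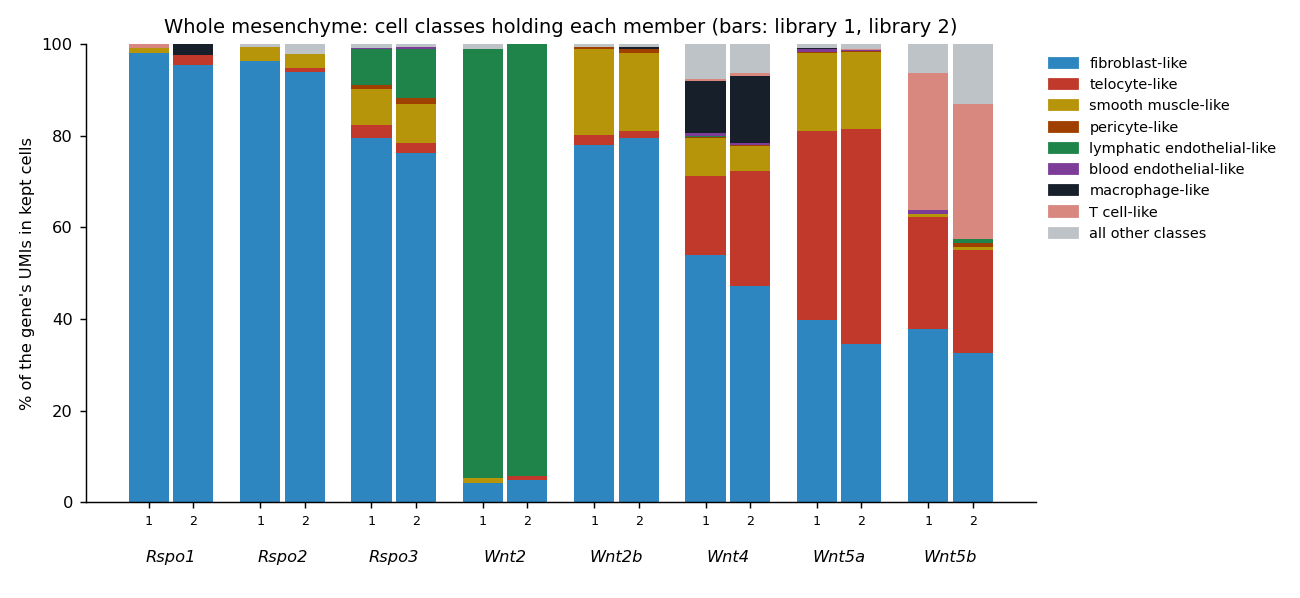
Share of each gene's UMIs held by each cell class, in percent of the UMIs in kept cells, for whole-mesenchyme libraries 1 and 2. Fibroblast-like cells hold over 90% of Rspo1 and Rspo2 UMIs, lymphatic endothelial-like cells 93.5% and 94.2% of Wnt2 UMIs, and Wnt5b is spread over fibroblast-like, T cell-like and telocyte-like cells.

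Fibroblast-like cells were not uniform for these genes. Cluster 12 of the whole mesenchyme, whose leading genes include Grem1, C3 and Dpt, held the highest levels of all 3 R-spondins among fibroblast-like clusters: 20.8 and 19.9 CPM of Rspo1, 37.5 and 32.6 of Rspo2, and 202 and 215 of Rspo3. Cluster 11, rich in Wnt4, was at the other end for Rspo3, with 36.7 and 56.4 CPM. Among fibroblast-like cells with an Rspo2 UMI, 3.41% also had a Wnt4 UMI, against 18.8% of those without. In the sorted library, the Grem1-led cluster 1 held 27.6 CPM of Rspo1 (22.3 to 33.7), 30.2 of Rspo2 (24.7 to 36.6) and 148 of Rspo3 (136 to 162), while its Mmp10-led cluster 6 held no Rspo1 UMI in 239 cells.

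Smooth muscle-like cells were split as well. Cluster 8, led by Tagln, Acta2 and Hhip, held 49.9 and 68.1 CPM of Rspo3, 29.4 and 30.4 of Wnt2b and 59.9 and 59.5 of Wnt5a. The 157 cells of cluster 24, led by Acta2, Tagln and Pln, held 6 UMIs of Rspo3 and 1 each of Wnt2b and Wnt5a. These levels describe the clusters and were not tested.

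The telocyte-like clusters of the sorted library differed more in Wnt5b than in Wnt5a. Wnt5b was at 57.7 CPM in cluster 4 (46.1 to 71.3), 23.0 in cluster 2 (17.8 to 29.2) and 13.3 in cluster 7 (7.60 to 21.6), and these intervals do not overlap between cluster 4 and the other clusters. Wnt4 was also highest in cluster 4, at 147 CPM (128 to 167) against 78.3 and 78.1 in clusters 2 and 7. Wnt5a was at 132, 180.3 and 148 CPM in clusters 4, 2 and 7. Cluster 4 was led by the Paneth cell transcripts Defa24, Lyz1 and Ang4 and had a median of 3798.5 UMIs, against 5025 and 5041 in clusters 2 and 7; the part of these transcripts in its levels was not tested.

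**Figure D5:**
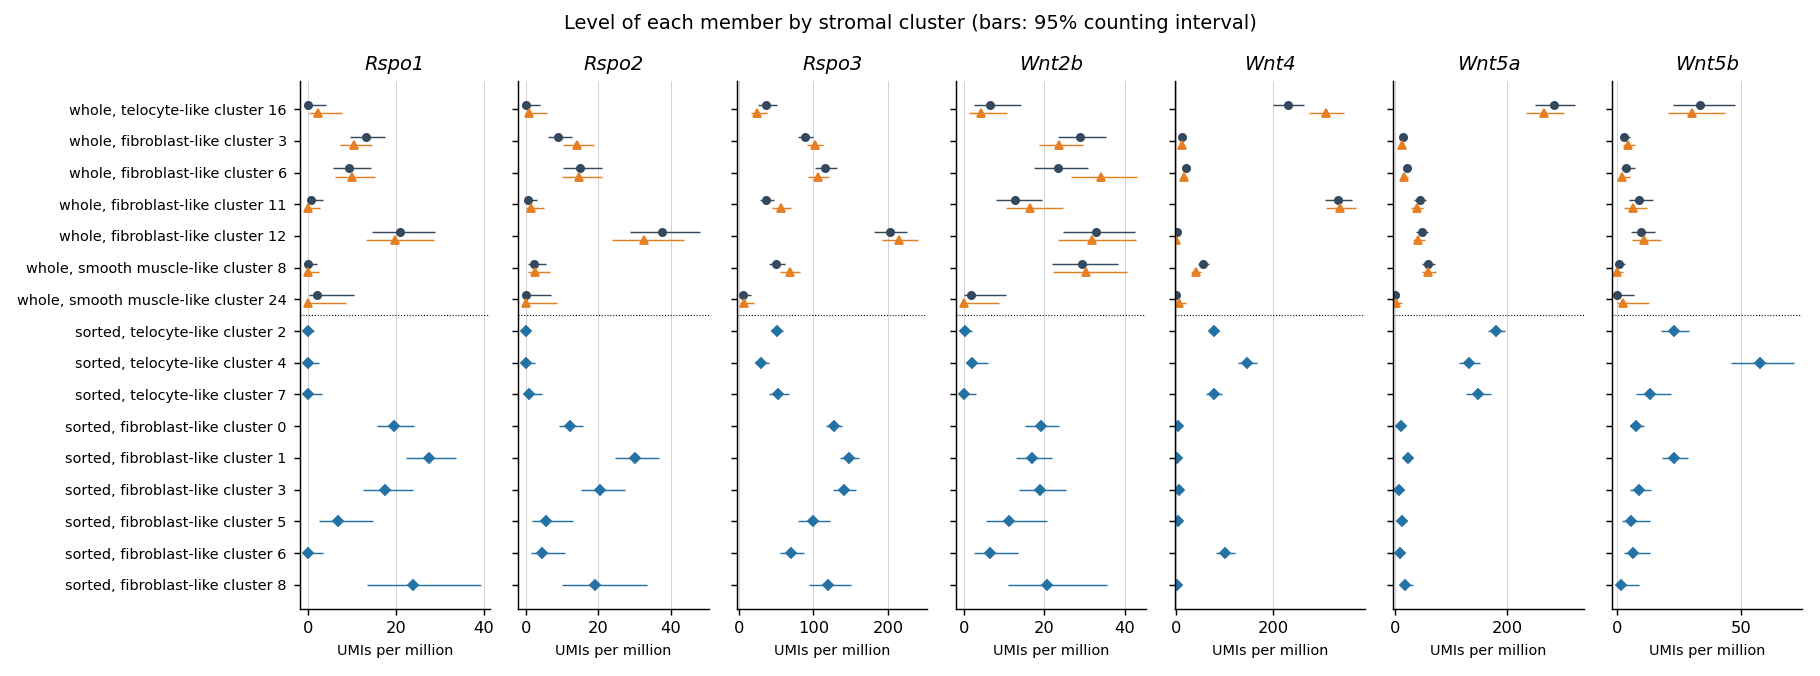
Level of 7 genes in CPM by stromal cluster, with exact 95% counting intervals; clusters above the dotted line are from whole-mesenchyme libraries 1 (circles) and 2 (triangles), those below from the sorted library (diamonds). Wnt4 peaks in fibroblast-like cluster 11 (333 and 337 CPM) and, among the whole-mesenchyme fibroblast-like clusters, all 3 R-spondins are highest in cluster 12.

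Levels of different genes were compared per kilobase of exon in bulk. In telocytes, Wnt5a was at 40.7 CPM per kb, Wnt4 at 30.5, Wnt5b at 16.5 and Rspo3 at 8.13, with the other 4 genes at 0.385 or below. PDGFRAlo cells were led by Rspo3 at 23.9 CPM per kb and Wnt2b at 14.4, followed by Rspo1 at 7.67, Rspo2 at 6.96 and Wnt5b at 5.46. LYVE1 cells held 81.2 CPM per kb of Wnt2 and 43.0 of Rspo3, and at most 2.08 of any other. CD31 cells held 5.89 CPM per kb of Wnt4 as their highest value.

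The sequences just upstream of the gene start are shown for 1 gene that was highest in each of 3 populations: Rspo1 (PDGFRAlo), Wnt4 (telocytes) and Wnt2 (LYVE1). They were taken from RefSeq promoter windows on GRCm38.p6, which matched 5 of the 8 genes (not Rspo2, Rspo3 or Wnt5a), were cut to end before the annotated gene start, and are given 5′ to 3′ on the gene's strand. Capitals mark a GC box (GGGCGG, or CCGCCC on the other strand).
Rspo1 (chr4:124986180-124986429, plus strand): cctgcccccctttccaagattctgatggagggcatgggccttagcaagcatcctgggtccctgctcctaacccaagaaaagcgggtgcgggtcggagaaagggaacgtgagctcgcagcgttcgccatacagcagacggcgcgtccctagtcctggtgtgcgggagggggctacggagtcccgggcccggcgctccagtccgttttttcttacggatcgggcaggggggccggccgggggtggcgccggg
Wnt4 (chr4:137277385-137277488, plus strand): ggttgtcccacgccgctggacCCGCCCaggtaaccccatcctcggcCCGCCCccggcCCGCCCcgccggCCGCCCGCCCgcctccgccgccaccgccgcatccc
Wnt2 (chr6:18030586-18030695, minus strand): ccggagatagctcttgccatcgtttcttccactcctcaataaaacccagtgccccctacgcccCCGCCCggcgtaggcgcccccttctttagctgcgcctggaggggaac
The Rspo1 window of 250 bases had no GC box, which 32.7% of 32851 windows of that length had. The Wnt4 window of 104 bases had 5, with overlapping matches counted, and 11.0% of windows of its length had any. The Wnt2 window of 110 bases had 1, against 11.6% of windows of its length. The 11.0% and 11.6% are for the first 104 and 110 bases of each 250-base window, the end farthest from the RefSeq start. They are not shares for the bases next to a gene start. None of the 3 windows held the TCF/LEF motif CTTTGAT or the TATA motif TATAAA on either strand. Of 250-base windows, 3.21% and 12.4% had these motifs. Those shares are for the length of the Rspo1 window and were not counted for the shorter Wnt4 and Wnt2 windows. A match is a description of these letters and not a binding site.

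Of the other Wnt ligands and Rspo4, few were measurable. In bulk, 3 of 15 passed the filter, and Wnt9a and Wnt11 were lower in telocytes than in PDGFRAlo cells, with 0 of 3 higher. Over all genes tested, 12.1% were called lower and 2.77% higher. Wnt9a, a ligand acting through beta-catenin, measured 3.71 and 6.11 CPM in telocytes and 17.5 and 44.5 CPM in PDGFRAlo cells (log2 fold change -2.65 ± 0.69; edgeR adjusted p = 0.0290). Wnt11 measured 1.50 and 2.60 against 12.3 and 25.9 CPM (-3.21 ± 0.60; adjusted p = 0.00636). In single cells, Wnt9b had 11 and 17 UMIs in lymphatic endothelial-like cells (23.5 and 35.4 CPM) and none in telocyte-like or fibroblast-like cells. It was called higher in lymphatic endothelial-like than fibroblast-like cells (edgeR adjusted p = 7.01e-09). Wnt9b was named after these counts were seen, so the call restates them and is no separate support. It was not among the ligands that passed the filter in bulk. The genes that lipidate and export Wnt ligands, Porcn and Wls, did not pass the test between telocytes and PDGFRAlo cells (0 of 2 called, background 14.9%). Wls measured 262 and 289 CPM in telocytes against 219.3 and 219.5 CPM in PDGFRAlo cells.

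On the receiving side, 0 of 4 R-spondin receptors and ligases and 0 of 7 beta-catenin-independent receptors were called between telocytes and PDGFRAlo cells in bulk. Of 11 Frizzled and Lrp receptors tested, Fzd2 was higher in telocytes and Fzd1, Fzd4 and Fzd10 were lower, against 14.9% of all genes called. Fzd2 measured 177 and 173 CPM in telocytes against 46.4 and 52.4 CPM (1.83 ± 0.40; edgeR adjusted p = 0.0145). Fzd1 measured 128 and 109 CPM in telocytes against 599 and 790 CPM (-2.55 ± 0.39; adjusted p = 0.00244), and Fzd4 6.91 and 5.93 against 65.0 and 63.4 CPM (-3.32 ± 0.32; adjusted p = 0.000337).

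In single cells, Fzd2 was again higher (0.98 ± 0.12; edgeR adjusted p = 1.21e-08) and Fzd1 and Fzd4 lower in telocyte-like than in fibroblast-like cells (-2.21 ± 0.12 and -2.43 ± 0.31; adjusted p of 1.90e-18 and 3.88e-08). Across all 10 Frizzled and Lrp genes tested there, 2 were higher and 4 lower, against 27.1% of all genes called. Of the 7 beta-catenin-independent receptors, Mcam and Ror2 were higher and Vangl2 and Ptk7 lower in telocyte-like cells. Ror2, a receptor for Wnt5a, measured 62.6 and 60.9 CPM in telocyte-like and 33.5 and 32.9 CPM in fibroblast-like cells (0.72 ± 0.19; edgeR adjusted p = 0.00257). None of the 3 R-spondin receptors and ligases tested there was called.

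Secreted Wnt inhibitors moved in opposite directions. Of 7 tested in bulk, Wif1 was higher in telocytes and Frzb, Sfrp1, Dkk2 and Sfrp4 were lower, with a median log2 fold change of -5.51 against -0.03 over all genes, of which 14.9% were called. In single cells, Wif1 and Dkk3 were higher and Sfrp1, Dkk2 and Frzb lower of 6 tested, against 27.1% of all genes called there. Wif1, which binds Wnt ligands directly, rose by 6.93 ± 0.48 on the log2 scale (edgeR adjusted p = 0.000240), while Sfrp1, a soluble Frizzled-like protein, fell by 5.51 ± 0.60 (adjusted p = 0.000544). Of 6 beta-catenin target genes tested in bulk, Apcdd1 and Nkd2, both themselves negative regulators of Wnt signalling, were lower in telocytes and none was higher, again against 14.9% of all genes. Apcdd1 measured 8.48 and 5.63 CPM in telocytes against 251 and 237 CPM (-5.11 ± 0.53; adjusted p = 0.000448). Single cells could not repeat this count in full, because Apcdd1 was not among the 5 targets tested there. Of these 5, Tcf7 was higher in telocyte-like cells (1.02 ± 0.34; edgeR adjusted p = 0.0193) and none was called lower. Nkd2 had the same sign as in bulk but did not pass the test (-2.01 ± 0.95; adjusted p = 0.124). Untested, Apcdd1 had 85 and 61 UMIs in fibroblast-like cells (9.56 and 7.54 CPM). Telocyte-like cells had 1 and 0 Apcdd1 UMIs (1.08 and 0 CPM).

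The genes whose levels over the 26 class sums of the whole mesenchyme lay closest to each ligand were found by Pearson's r of log2(CPM + 10) values. The points share libraries and classes, so r is a description. Rspo1 was closest to Pla2g2e (r = 0.977), Rspo2 to Ano5 (0.995) and Rspo3 to Adamtsl1 (0.972) and Tnxb (0.968). Wnt2 was closest to Tbx1 (1.00), Ackr2 and Sema3a, and Wnt2b to Lrrc17 (0.967). Wnt4 was closest to Pla2g4a (0.947), Wnt5a to Syt13 (0.976) and Bmp5 (0.972), and Wnt5b to Bmp7 (0.905). Bmp5 and Bmp7 are among the telocyte markers used to name the classes, so these matches are not independent of the naming.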

How the data were processed

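Bulk RNA was amplified from 5 to 10 ng with SMART-Seq v4, per the labels' protocols, and the authors deposited raw read counts per gene for 8 libraries. The single-cell libraries are given as 10x 3' V2, and the authors deposited UMI counts per gene and barcode. The unfiltered matrices list 737280 barcodes for the sorted library and 6794880 for each whole-mesenchyme library, so a shared chemistry is doubtful. Levels in the sorted and whole-mesenchyme libraries may differ for this technical reason, which was not tested. The submitters' processing notes name STAR, Cell Ranger, Seurat and mm10; the sources used here do not give the counting program, annotation or strand. The 26 bulk rows whose names a spreadsheet had turned into dates were left out (0.131% to 0.523% of counts).

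Bulk counts were fitted with edgeR 4.0.16 (quasi-likelihood, 4 group means, TMM, filterByExpr; 4 residual degrees of freedom). Same-numbered libraries did not pair (correlations of -0.097 to 0.279 over 6 pairs of groups). Single cells were kept at 500 genes or more, under 10% mitochondrial UMIs and a scrublet score under 0.25, a threshold set after the automatic one marked 6 of 6226 cells; 45, 98 and 113 doublets were removed. Cells were clustered with scanpy 1.11.5 (2000 variable genes, 30 components, 15 neighbours, Leiden resolution 1), leaving out 67 listed genes. The marker lists were fixed, and the rule that scored them was set after seeing the clusters. Exact intervals and limits of a zero (3 counts) are at 95% and cover counting error only. All 8 genes are named; from each other list, up to 3 genes with the smallest p among those called between telocytes and PDGFRAlo cells, and other Wnt ligands with a group mean of 1 CPM or more. Wnt9b, Wls, Porcn, Fzd10, Dkk2, Dkk3, Sfrp4, Mcam, Ror2, Vangl2, Ptk7 and Tcf7 fall outside this rule and were named after their values were seen. Likeness is the highest Pearson's r of log2(CPM + 10). Members and lists were chosen with earlier results of these data known. The fits were tested on simulated data. Alternatives were DESeq2 1.42.0, other scaling, filters, blocks, cell filters and each bulk library left out.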

Additional observations from a re-analysis of the deposited data

How the results depend on the processing

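With 2 libraries per group, calls between bulk groups were limited by single libraries. The share of all genes called was taken for the main fits only. Counts of the 8 genes under other settings therefore have no background, and a change in them may not concern these genes alone. Of the 8 genes, 7 were called between telocytes and PDGFRAlo cells, and 4 to 8 when each library was left out in turn; between CD31 and LYVE1 cells, 3 were called, and 1 to 4. Wnt2 between PDGFRAlo and CD31 cells changed sign to 4.02 without CD31 replicate 2 and was -1.71 without CD31 replicate 1. The replicate number did not pair the bulk samples; with a replicate block, 7, 6, 7, 6, 6 and 3 genes were called over the 6 comparisons, as without it. Without the library block, the single-cell counts were 6, 6, 6, 2, 5 and 2, also as with it. For pericyte-like cells, 2 genes were called, against 4 with no filter on low counts, 1 by DESeq2 and 4 at Leiden resolution 2; no value could be had under the marker gate or under 5% mitochondrial UMIs, where too few cells were left. Leaving out the smooth muscle-like cluster led by Des and Pln, an alternative chosen after seeing the data, kept 5 genes called. The median log2 fold change over all genes was -0.21 for pericyte-like against fibroblast-like cells with TMM scaling and 0.0003 with DESeq2, -0.13 and -0.03 for lymphatic endothelial-like cells, and -0.19 and -0.12 between telocytes and CD31 cells in bulk. The cause of these changes was not tested.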
